A study of Mus musculus with 32 samples.

Results

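The 8 genes Mbp, Mobp, Mag, Mog, Mal, Cnp, Opalin and Ermn encode proteins of the myelin sheath of the central nervous system. They were taken by symbol from a matrix of 27998 genes and 5982 cells from the median eminence (ME) of the mouse, the part of the hypothalamus where neurosecretory axons meet the portal vessels, and all 8 had a row. The cells came from C57B/L6 mice aged 40 to 47 days, 5 of which had been fasted overnight (16 h) and 5 refed normal chow for 1 h after such a fast. The general methods of the study state male mice, and the labels name no allele or drug in either group. The tissue of the animals of each condition was combined and each pool was split over 2 libraries, so a library is not an animal. The 32 sample records are sequencing parts of these 4 libraries.

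Each cell barcode ended in a number from 1 to 4 that neither the labels nor the matrix ties to a library or a condition. The cells were therefore treated as 1 sample, refed and fasted cells were not compared, and no statistical test was run. Values are given over all cells and side by side for the 4 barcode numbers. Intervals are exact at the 95% level, and they and the limits given for counts of 0 cover counting error only. Levels are counts of unique molecular identifiers (UMIs) summed over cells and scaled to a total of 1e+06 (CPM). Because the reads came from the 3′ end of each transcript and CPM has no term for transcript length, genes are compared with each other only as a percent of their own level in mature oligodendrocytes. A cell held 1533 to 25054 UMIs (median 3837), and the 4 barcode numbers held 1359 to 1642 cells with median depths of 3518 to 4057 UMIs. There were 21 barcode sequences found under more than 1 number (42 cells), and they were kept.

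Oligodendrocytes arise from oligodendrocyte precursor cells (OPCs), which leave the cell cycle, pass through a differentiating stage (diffOPCs) and become mature oligodendrocytes (MOLs) that wrap axons in compact myelin. Mbp encodes the basic protein that closes the cytoplasmic faces of the membrane onto each other, and Cnp a protein that keeps channels of cytoplasm open between them. Mag is an adhesion protein on the membrane next to the axon, Mog sits on the outermost surface of the sheath, and Mal is a lipid raft protein that takes part in sorting membrane. Mobp is a small basic protein of compact myelin, Opalin a glycoprotein of the oligodendrocyte membrane, and Ermn (ermin) a cytoskeletal protein of late oligodendrocytes.

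In GRCm38, with GENCODE gene models, Mbp lies on chromosome 18 (82475146 to 82585637, plus strand), Mobp on chromosome 9 (120149707 to 120181484, plus), Mag on chromosome 7 (30899176 to 30914873, minus) and Mog on chromosome 17 (37010743 to 37023398, minus). Mal (127633226 to 127656695, minus) and Ermn (58045113 to 58052864, minus) are both on chromosome 2, Cnp is on chromosome 11 and Opalin on chromosome 19 (41061710 to 41077113, minus).

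The cells were clustered with the 8 genes left out of the variable genes, and clusters were named from marker lists that held none of them, so that their levels in a stage are not what named it. The lineage made up 1106 cells (18.5% of all cells), of which 309 were OPC-like (Pdgfra, Cspg4), 139 diffOPC-like (Bmp4, Fyn, Enpp6) and 658 MOL-like (Aspa, Gjb1, Hapln2). All 6 OPC markers and all 8 diffOPC markers were highest in their own stage, as were 7 of the 8 MOL markers, the exception being Apod in cells of the vascular leptomeninges (VLMCs). A further 4257 cells fell into 10 named types outside the lineage, and 616 cells in 4 clusters stayed unnamed.

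RefSeq promoters (GRCm38.p6) were read for 7 members, and none was read for Mbp. Of these 7, 5 are shown because they differ in when their transcript was first seen. Each line holds the 250 bases before the transcription start, 5′ to 3′ on the strand of the gene. Capitals mark matches, on either strand, to CTGGNAC, a core of the sites bound by the oligodendrocyte factor Myrf, and to ACAANG, a core bound by Sox factors. Cnp is read from chr11:100574689-100574938 (plus strand), Mag from chr7:30914864-30915113 (minus), Mog from chr17:37023399-37023648 (minus), Mobp from chr9:120149492-120149741 (plus) and Mal from chr2:127656696-127656945 (minus).
Cnp: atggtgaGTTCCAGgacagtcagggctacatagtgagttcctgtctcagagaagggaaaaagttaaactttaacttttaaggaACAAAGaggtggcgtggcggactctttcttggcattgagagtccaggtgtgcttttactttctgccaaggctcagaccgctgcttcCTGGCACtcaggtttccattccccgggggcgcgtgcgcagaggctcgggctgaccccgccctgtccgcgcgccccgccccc
Mag: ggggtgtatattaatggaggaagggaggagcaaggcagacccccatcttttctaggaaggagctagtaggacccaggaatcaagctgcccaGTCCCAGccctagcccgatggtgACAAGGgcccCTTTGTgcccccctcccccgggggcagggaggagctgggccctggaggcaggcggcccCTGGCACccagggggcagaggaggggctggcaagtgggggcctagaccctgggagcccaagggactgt
Mog: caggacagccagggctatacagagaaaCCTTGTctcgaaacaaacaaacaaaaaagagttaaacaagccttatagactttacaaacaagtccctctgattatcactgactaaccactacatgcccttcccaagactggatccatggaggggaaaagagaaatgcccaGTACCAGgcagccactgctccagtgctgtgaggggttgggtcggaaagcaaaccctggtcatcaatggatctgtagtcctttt
Mobp: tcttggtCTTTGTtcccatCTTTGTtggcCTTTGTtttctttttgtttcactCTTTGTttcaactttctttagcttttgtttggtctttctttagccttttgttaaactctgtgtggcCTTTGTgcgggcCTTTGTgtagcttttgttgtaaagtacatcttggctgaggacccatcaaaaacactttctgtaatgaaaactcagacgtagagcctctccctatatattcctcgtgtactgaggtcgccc
Mal: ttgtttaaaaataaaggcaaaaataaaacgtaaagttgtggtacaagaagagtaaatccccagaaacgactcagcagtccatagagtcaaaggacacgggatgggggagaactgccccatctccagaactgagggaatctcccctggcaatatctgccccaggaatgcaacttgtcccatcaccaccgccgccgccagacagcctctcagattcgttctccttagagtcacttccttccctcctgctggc

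CTGGNAC was found 2 times in the Cnp window, 2 times in that of Mag and 1 time in that of Mog, and 0 times in those of Mobp, Mal, Opalin and Ermn. Of the promoters of 27025 genes, 16% held it in the same window. In Mag one match began 68 bases before the start and the other 159 bases before, and in Cnp one began 81 bases before the start. ACAANG, present in 36.6% of all promoters, had 6 matches before Mobp, 2 before Mag, 2 before Ermn and 1 each before Cnp, Mog and Opalin. Mal had 0 matches to either motif in its 250 bases. CAGNTG, an E-box present in 44.5% of promoters and not capitalised here, was found 1 time each before Cnp and Opalin. No match to these 3 motifs overlapped another. A match is a description of the letters and not evidence of binding.

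The 8 genes together made up 3.53% of all UMIs of MOL-like cells (3.51% to 3.54%). By barcode number this share was 3.504%, 3.45%, 3.44% and 3.69%, a narrow range. In diffOPC-like cells it was 1.88%, with 1.96%, 1.48%, 2.15% and 1.78% by number. In OPC-like cells it was 0.0643%, close to the 0.0640% of the named cells outside the lineage. By type those cells reached from 0.0410% (VLMC-like) to 0.110% (astrocyte-like). In OPC-like cells Cnp made up 57.4% of the UMIs of the 8 genes. The lineage thus held 92.7% of the UMIs of the 8 genes in 24.0% of all UMIs, with 80.1% of them in MOL-like and 12.2% in diffOPC-like cells.

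In MOL-like cells Cnp had 8379 CPM (8294 to 8464), Mbp 8130 CPM (8047 to 8214) and Mal 4696 CPM (4633 to 4760). Mobp had 4229 CPM, Mag 3872 CPM, Mog 2307 CPM, Ermn 1925 CPM and Opalin 1719 CPM. Every one of the 658 cells had a UMI of Mbp, Cnp, Mag, Mobp, Mog and Mal, while 655 had one of Ermn and 628 one of Opalin. The levels differed little between barcode numbers. Mbp had 8236, 8238, 7941 and 8136 CPM in numbers 1 to 4, and Opalin 1719, 1817, 1675 and 1694 CPM. Mag spread most in this stage, with 3779, 3529 and 3538 CPM in numbers 1 to 3 and 4518 CPM in number 4. A set of 20 MOL-like cells described further on had Mag at 12948 CPM. Numbers 1 to 4 held 5, 4, 3 and 8 of them, and their part in this spread was not tested.

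The genes differed widely in how much of this mature level was already present in diffOPC-like cells. Mbp had 9007 CPM there, 111% of its level in MOL-like cells (108% to 113%). By barcode number it had 120%, 84.3%, 136% and 92.6%, so the 4 numbers lay on both sides of 100%. Cnp had 6903 CPM or 82.4% (80.5% to 84.3%), with 77.8% to 86.1% by number. Summed over the stage, both were thus close to their mature level before the cells had the markers of MOLs. Along the stage, however, Mbp went from 21.2% in the early bin to 194% in the late bin of cells described further on. Mag had 1909 CPM, 49.3% of its mature level (47.2% to 51.4%), and 39.3%, 33.2%, 72.6% and 50.4% by number.

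The other 5 genes were at a small part of their mature level in diffOPC-like cells. Mobp had 550 CPM or 13.01% (12.1% to 14.03%), with 10.9%, 2.72%, 20.9% and 15.7% by number. Mog had 238 CPM or 10.3% (9.18% to 11.6%), with 9.27%, 8.43%, 14.4% and 8.74% by number. Mobp was above Mog in numbers 1, 3 and 4 and below it in number 2, so these 2 neighbours in the order are not separated by the numbers. Opalin followed at 3.72% (2.96% to 4.63%), Ermn at 1.78% (1.295% to 2.40%) and Mal at 1.26% (0.995% to 1.58%). The intervals of Ermn and Mal overlap, and number 2 had them in the other order. With the remaining cells clustered and named again, Mal was at 0.814% without barcode number 1 and at 0.820% without number 2. These low values also rested on 8 deep cells described further on, without which Opalin was at 2.18%, Ermn at 0.635% and Mal at 0.502%, the last 2 near their 0.619% and 0.694% in OPC-like cells. Without the same 8 cells Mag was at 25.6% and Mobp at 1.76%. All 28 pairs of genes had the same order in numbers 1, 3 and 4 as over all cells, and 26 of 28 pairs did in number 2.

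**Figure D1:**
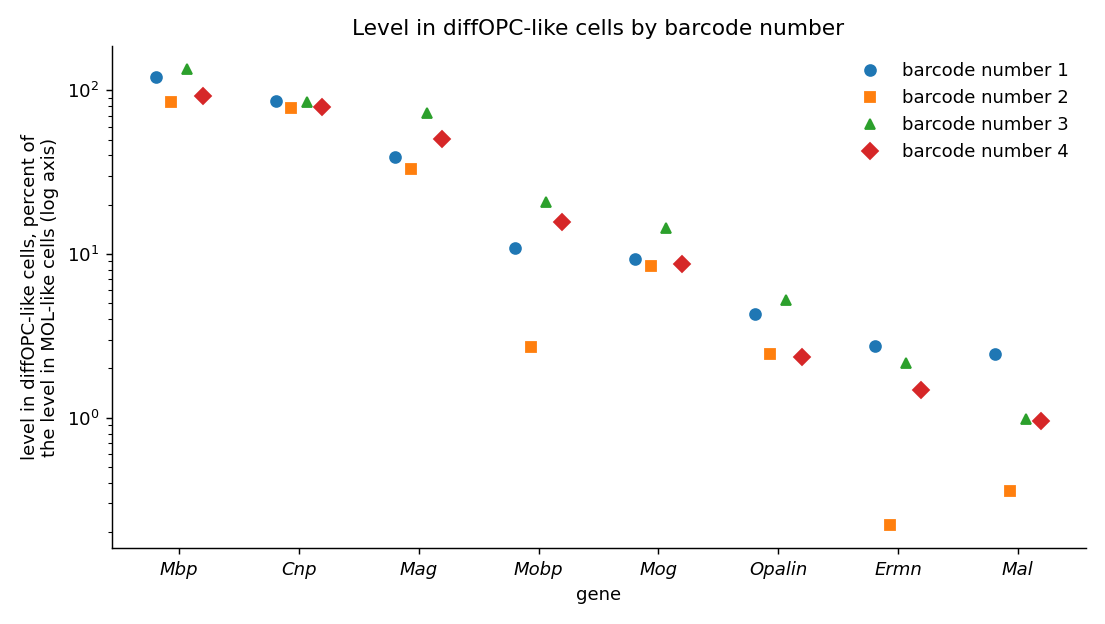
Level of each gene in the 139 diffOPC-like cells as a percent of its level in MOL-like cells (log axis), 1 point for each of the 4 barcode numbers, with genes in the order over all cells. Mbp and Cnp lie between 77.8% and 136% in all 4 numbers, and the points of Mobp reach from 2.72% to 20.9%.

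In OPC-like cells 7 of the 8 genes had 0.619% (Ermn) to 1.33% (Mobp) of their mature level. Cnp had more, 369 CPM (336 to 404) or 4.40% of its mature level, and 388, 345, 378 and 359 CPM by barcode number. All 8 genes lay within the range they had in the types outside the lineage, where Cnp reached from 129 CPM in mural-like to 781 CPM in astrocyte-like cells, with 145 CPM (136 to 154) in neuron-like cells. A UMI of Cnp was found in 73.8% of OPC-like cells (median depth 4025 UMIs) and, with every cell thinned to 1000 UMIs, in 28.5% of them against 14.1% of neuron-like cells (median depth 13070 UMIs before thinning).

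The diffOPC-like cells were ordered by their distance along the cell graph, counted from the OPC-like cell farthest from MOL-like cells, and divided into an early, a middle and a late bin of 47, 46 and 46 cells. The MOL-like cells were divided in the same way. Mbp had 1727 CPM in the early bin, 6396 CPM in the middle bin and 15789 CPM in the late bin, which is 21.2%, 78.7% and 194% of its mature level. Its highest level was thus in late diffOPC-like cells and not in MOL-like cells, whose 3 bins had 7828, 8129 and 8343 CPM. Cnp started earlier and changed less, with 3732, 6550 and 9149 CPM in the 3 diffOPC-like bins. In the early bin Cnp was at 44.5% of its mature level (42.0% to 47.2%) and Mbp at 21.2% (19.5% to 23.1%), the reverse of their order over all diffOPC-like cells.

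Mag had 77.5, 529 and 4270 CPM in the same bins, or 2.00%, 13.7% and 110% of its mature level. Mog was the next to leave the level of OPC-like cells. It had 48.4, 169 and 416 CPM, with 7.33% of its mature level (5.79% to 9.16%) in the middle bin. Mobp was at 1.37% and 1.03% (0.626% to 1.58%) of its mature level in the early and middle bins, and at 30.9% (28.6% to 33.4%) in the late bin. In the early bin the intervals of Mog and Mobp overlapped, and in the middle bin Mog was above Mobp. Opalin, Ermn and Mal were at 0.225% to 1.88% in the early and middle bins and had 7.18%, 3.97% and 2.46% in the late bin.

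The late bin held 8 deep cells that carried 620 of its 667 Mobp, 49 of its 59 Mal, 30 of its 39 Ermn and 39 of its 63 Opalin UMIs. In the other 38 cells of the bin Mobp was at 2.97% (2.18% to 3.95%), below Mog at 13.7% (11.3% to 16.4%), and Mag at 59.7% (55.7% to 64.0%). Opalin was at 3.73% (2.39% to 5.56%), Ermn at 1.25% (0.571% to 2.37%) and Mal at 0.569% (0.273% to 1.05%) in these 38 cells, while Mbp was still at 178% (173% to 183%) and Cnp at 95.9%. The late-bin levels of Mobp, Mal and Ermn thus rested mostly on the 8 cells, and those of Opalin and Mag rested on them in part. The high level of Mbp did not rest on them.

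**Figure D2:**
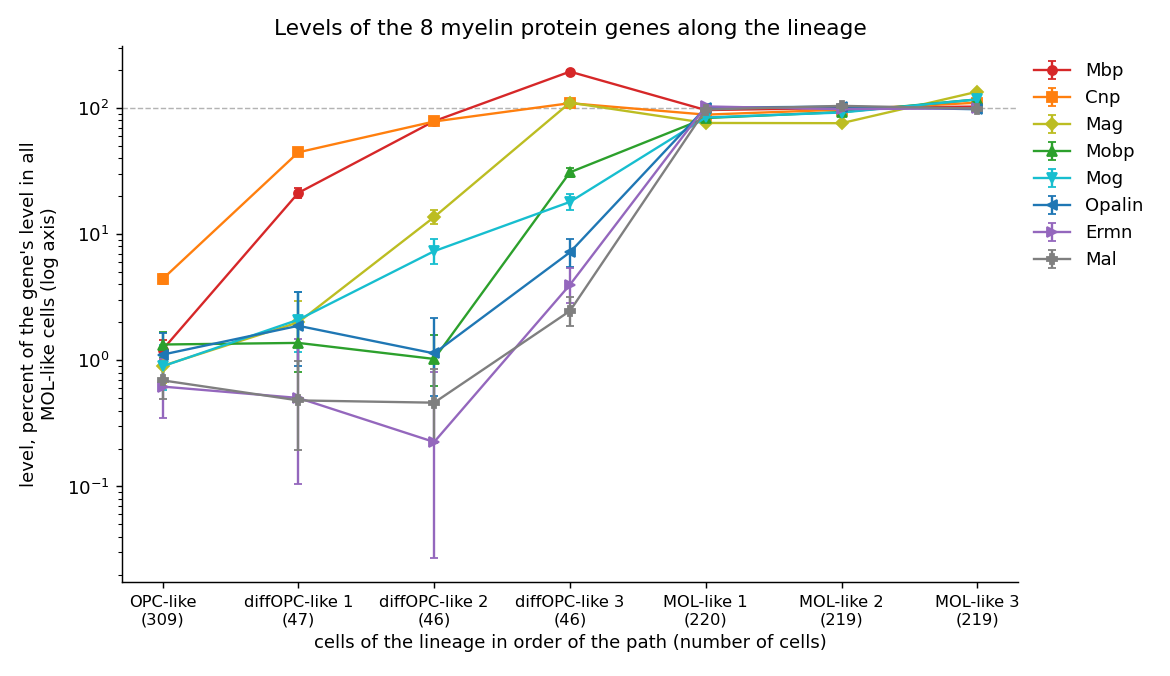
Level of each gene as a percent of its level in all MOL-like cells (log axis) in OPC-like cells and in 3 bins each of the diffOPC-like and of the MOL-like cells in order of the path, with the number of cells below each. Bars are 95% counting intervals. In the early bin of diffOPC-like cells Cnp and Mbp are far above the level of OPC-like cells, and Mag is slightly above it (2.00% against 0.903%). In the middle bin Mag is at 13.7% and Mog at 7.33%. The other 4 genes are at or under 1.88% until the late bin, where 8 of the 46 cells hold 620 of the 667 Mobp UMIs.

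Cell by cell, a gene was counted as on where a cell had at least 2 UMIs of it and at least 10% of the level of MOL-like cells. Of the 139 diffOPC-like cells, Cnp was on in 137 (98.6%), Mbp in 112 (80.6%), Mag in 70 (50.4%), Mog in 38 (27.3%), Mobp in 11 (7.91%), Opalin in 8 (5.76%), Ermn in 5 (3.60%) and Mal in 1 (0.719%). The sets of Cnp, Mbp and Mag were nested, and those of the later genes were less so. All 112 cells with Mbp on had Cnp on, and 25 cells had Cnp on without Mbp. All 70 cells with Mag on had Mbp on, while 42 cells had Mbp on without Mag and 0 cells had Mag on without Mbp, which allows a share of up to 2.16% of the 139 cells. Mog was on without Mag in 4 cells and Mag without Mog in 36. Mog was on without Mobp in 29 cells and Mobp without Mog in 2, so by this count Mog was placed before Mobp. Opalin was on without Mog in 4 cells and with it in 4, and without Mobp in 5 cells and with it in 3. Ermn was on without Opalin in 3 cells and with it in 2. In MOL-like cells 605 of 658 had all 8 genes on, 52 had 7 and 1 had 6.

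The place of Mobp in the order rested on few cells. When the other myelin sheath and myelin lipid genes were left out of the clustering together with the 8 members, 8 of the 139 diffOPC-like cells joined 20 MOL-like cells in a cluster of 28 cells that no marker list named. These 8 cells held 620 of the 705 Mobp UMIs of the diffOPC-like stage (87.9%). They came from all 4 barcode numbers (2, 1, 3 and 2 cells) and were deep, with a median of 17050 UMIs against 8603 in the other 131 cells, and none was called a doublet. Mobp had 21, 46, 67, 76, 77, 100, 111 and 122 UMIs in them, and at most 12 UMIs in any other diffOPC-like cell.

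In these 8 cells the early genes stood above their mature level and the late genes far below it. Mbp had 19405 CPM or 239% of the MOL-like level (229% to 248%), Mag 9648 CPM or 249% (235% to 264%), Cnp 12219 CPM or 146%, and Mobp 4556 CPM or 108% (99.3% to 117%). Mog was at 29.9% (24.2% to 36.7%), Opalin at 16.7% (11.8% to 22.8%), Ermn at 11.5% (7.72% to 16.4%) and Mal at 7.67% (5.67% to 10.1%). Of the 49 Mal UMIs, 35 were in 1 cell, and the other 7 cells had 0 to 7. That 1 cell also held 14 of the 39 Opalin and 12 of the 30 Ermn UMIs. In the other 131 diffOPC-like cells Mobp had 74.2 CPM, 1.76% of its mature level (1.40% to 2.17%), and Mog 184 CPM or 7.99% (6.94% to 9.15%). Mobp was therefore below Mog in the other 131 cells and above it in the 8 cells.

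The 10 genes that most exceeded both the other diffOPC-like and the MOL-like cells in the 8 cells, among genes with at least 50 UMIs there, were H2-K1, Ninj1, Rras2, Pcdh17, Sema6a, Ubl3, Arpc1b, Phlda1, Cntn1 and Tmem141. Each of them except H2-K1 (5 cells) had a UMI in all 8 cells. Pcdh17, a protocadherin, had 2072 CPM against 193 CPM in the other 131 cells and 83.3 CPM in the MOL-like ones. Rras2, a small GTPase, had 1007 CPM against 83.0 and 4.69 CPM. The 20 MOL-like cells of the same cluster had Mag at 12948 CPM (334% of the mature level) and Mobp at 7448 CPM (176%), and unlike the 8 cells they had the late genes near or above the mature level, with Mal at 93.2% and Opalin at 181%. These cells were singled out after their values had been seen, and the 8 lay between 0.846 and 1 on the path, against a median of 0.828 for MOL-like cells, so the path does not place them between the 2 stages.

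**Figure D3:**
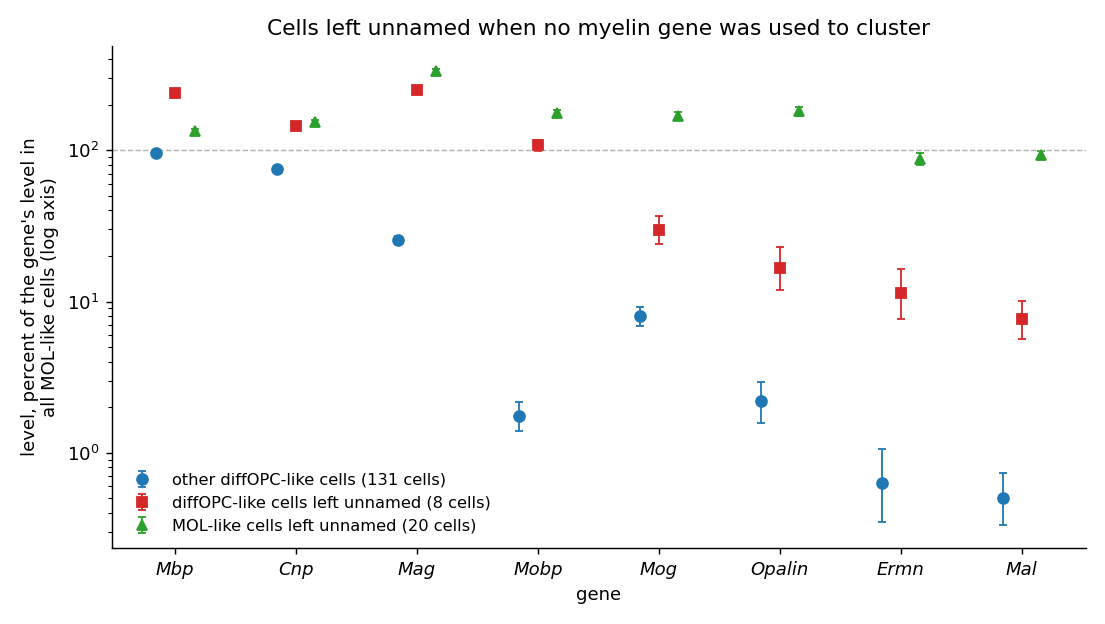
Level of each gene as a percent of its level in all MOL-like cells (log axis, bars are 95% counting intervals) in the 131 other diffOPC-like cells, in the 8 diffOPC-like cells left unnamed when no myelin gene was used for clustering, and in the 20 MOL-like cells that joined them. In the 8 cells Mobp is at 108% while Mal is at 7.67%, and in the 131 cells Mobp (1.76%) is below Mog (7.99%).

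Set against all genes, 7 of the 8 members were higher by at least 1 log2 unit in diffOPC-like than in OPC-like cells, as were 6.55% of the 7028 genes compared (12.5% were lower). Mal did not pass, at 0.70 log2 units. The log2 ratio was 6.38 for Mbp, which was second of all genes compared, 5.42 for Mag, 4.19 for Cnp, 3.08 for Mobp, 3.02 for Mog, 1.35 for Opalin and 1.02 for Ermn. Without the 8 cells, 4 of the 8 members passed, and Mobp, Opalin and Ermn did not.

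In MOL-like against diffOPC-like cells 6 of the 8 members were higher by at least 1 log2 unit, as were 7.58% of 8109 genes (13.7% were lower). Mal, at 6.09, was second of all genes compared, Ermn had 5.45 and Opalin 4.55. Mog had 3.22, Mobp 2.92 and Mag 1.02. Cnp at 0.28 and Mbp at -0.15 stayed within 1 log2 unit. All log2 ratios have 10 CPM added to both levels, and there is no replicate to check them against.

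The other genes of the sheath divided over the same 2 steps. Of 18 other sheath genes compared, 10 were higher and 2 lower in diffOPC-like than in OPC-like cells (median 1.37 log2 units, against -0.17 for all genes). Cldn11, the claudin of the tight junctions in myelin, had 2845 CPM against 84.3 CPM (4.92 log2 units), Nfasc, an adhesion protein of the paranode, 962 against 52.5 CPM, Bcas1 890 against 89.8 CPM, and Sept4, a septin of the myelin cytoskeleton, 375 against 69.2 CPM. Of 22 compared in MOL-like against diffOPC-like cells, 14 were higher and 3 lower (median 1.71, against -0.28 for all genes). The gap junction gene Gjb1 had 398 against 8.59 CPM, Hapln2, a link protein at nodes, 527 against 16.4 CPM, Anln 201 against 0.781 CPM (1 UMI) and Pmp22 208 against 9.37 CPM. The 3 that were lower in MOL-like cells were Cd9 (1392 against 7607 CPM), Bcas1 (95.1 against 890 CPM) and Nfasc (243 against 962 CPM), which were named after their values were seen. Bcas1 was among the diffOPC markers and Gjb1, Hapln2 and Anln among the MOL markers, so their stage is not independent of the naming.

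Of all genes compared, 6.55% were higher and 12.5% lower in diffOPC-like than in OPC-like cells (median -0.17). Of the myelin lipid and axon support genes, 6 of 15 were higher and 1 lower (median 0.73). They included Elovl7 (363 against 23.1 CPM) and Elovl1 (121 against 31.0 CPM), which lengthen fatty acids, Ugt8a, which makes galactocerebroside (730 against 165 CPM), and Fa2h, which hydroxylates its fatty acid (226 against 58.8 CPM). In MOL-like against diffOPC-like cells 7.58% of all genes were higher and 13.7% lower (median -0.28). Of the same list 4 of 16 were higher and 1 lower (median 0.24). These were Aspa, a MOL marker that splits N-acetylaspartate (1263 against 11.7 CPM), the ceramide synthase Cers2 (798 against 210 CPM), the lactate transporter Slc16a1 (45.8 against 9.37 CPM) and Elovl1 (269 against 121 CPM).

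Of 19 transcription factors of the lineage, 6 were higher and 6 lower in diffOPC-like than in OPC-like cells (median 0.07). For all genes the shares were 6.55% and 12.5%, and the median was -0.17. Myrf, the factor that drives myelin genes, went from 14.3 CPM to 139 CPM at this step, and MOL-like cells had 135 CPM of it. Tcf7l2 (664 against 77.9 CPM), Sox4 (1189 against 331 CPM) and Nkx6-2 (141 against 42.9 CPM) were also among the highest. Tcf7l2 was among the diffOPC markers, so its stage in both comparisons is not independent of the naming. In MOL-like against diffOPC-like cells 2 were higher and 9 lower (median -0.72), with Nkx6-2 at 658 CPM and Zfp536 at 161 against 25.8 CPM. For all genes the shares were 7.58% and 13.7%, and the median was -0.28. Among the 9 factors that were lower, named after their values were seen, Sox4 had 14.3 CPM, Tcf7l2 30.4 CPM and Sox6 2.46 against 208 CPM.

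The MOL-like cells formed 6 clusters, made without the 8 genes, and Opalin differed most among them. In a cluster of 67 cells led by Klk6, a secreted protease, Opalin had 255 CPM (215 to 300), against 1272 to 2533 CPM in the other 5 clusters. By barcode number it had 136, 358, 190 and 336 CPM there, while the lowest value of any other MOL-like cluster in any number was 1078 CPM. Opalin was on in 28 of the 67 cells (41.8%, 29.8% to 54.5%) and had 0 UMIs in 28, although these cells were deeper (median 7847 UMIs) than those of 4 of the other 5 clusters. In the other clusters it was on in 94.0% to 100% of cells, and 39 of the 47 MOL-like cells with Opalin off were in the Klk6-led cluster. Klk6 had 1416 CPM there and at most 17.7 CPM in the other clusters.

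Mal was also lowest in the Klk6-led cluster, with 2814 CPM (2678 to 2956) against 4260 to 6408 CPM elsewhere. By number it had 2659, 3003, 2600 and 2986 CPM. The other 6 genes did not share this pattern. Ermn had its highest value there, 2472 CPM (2344 to 2606), Mog had 107% of its mean MOL-like level, Mobp 105%, Mbp 97.8%, Cnp 91.8% and Mag 86.8%. Opalin and Mal were therefore lowest in the same cluster in which Ermn was highest.

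A cluster of 115 deep cells (median 9216 UMIs) led by Slc9a3r2 and Ctps had the highest Mag (6526 CPM, 169% of the MOL-like level), Opalin (147%), Mal (136%), Mog (132%), Cnp (132%) and Mobp (126%), and the lowest Ermn (1609 CPM, 83.6%). It held all 20 of the MOL-like cells that were left unnamed above, which carried 4073 of its 7393 Mag UMIs. Without them Mag was at 4057 CPM (105%), Mobp at 107%, Mog at 118%, Cnp at 123%, Opalin at 134% and Mal at 153%, and Ermn at 82.1%. In the whole cluster, Dcn, a VLMC marker, and Hspa1a, a heat shock gene, were among the 10 leading genes. In the other 4 clusters all 8 genes lay between 71.1% and 110% of their MOL-like level. One of these, of 74 cells, came mostly from barcode numbers 3 and 4 (33 and 30 cells, against 4 and 7). In another, of 131 cells, the mural cell gene Acta2 led the summed counts through 7 cells (5.34%).

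**Figure D4:**
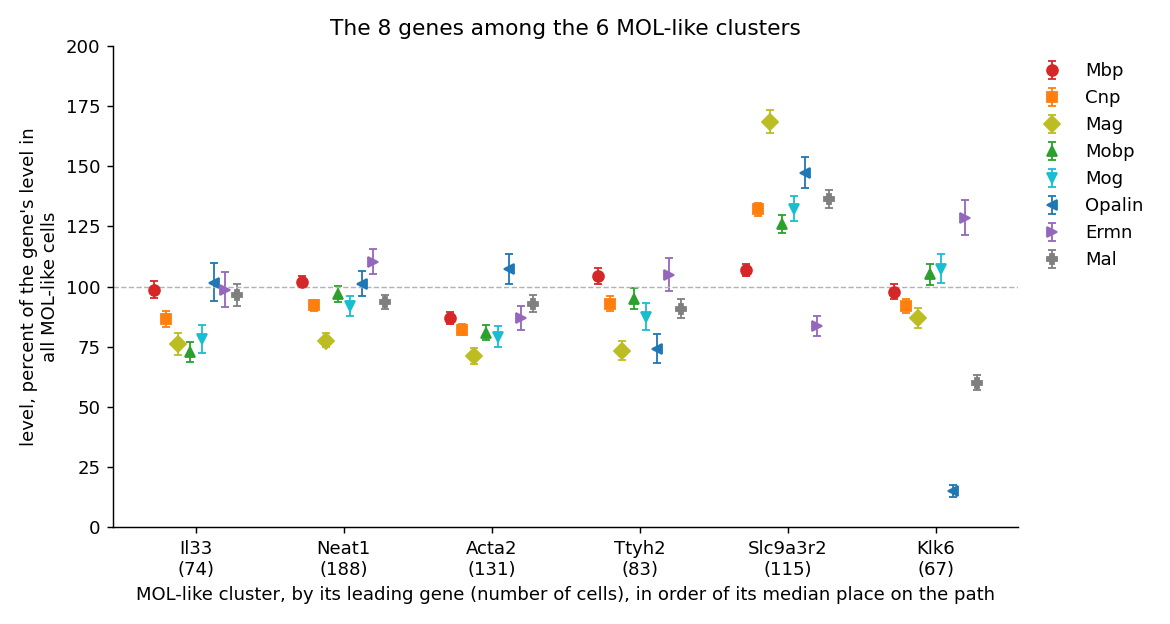
Level of each gene in the 6 MOL-like clusters as a percent of its level in all MOL-like cells (linear axis from 0, bars are 95% counting intervals), each cluster labelled by its leading gene and number of cells. Opalin is at 14.8% and Mal at 59.9% in the Klk6-led cluster, and Mag is at 169% in the Slc9a3r2-led cluster (105% without 20 of its 115 cells).

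Outside the lineage, in tissue dissociated to single cells, RNA set free from broken cells can enter any droplet. Over the 10 named types together the 8 genes had 640 CPM, 1.82% of their level in MOL-like cells (1.78% to 1.85%). By barcode number this was 1.505%, 1.40%, 2.08% and 2.21%, so numbers 3 and 4 were above numbers 1 and 2. The MOL-like share of cells, 10.5%, 8.64%, 13.2% and 11.96%, and of UMIs, 14.97%, 13.4%, 16.4% and 16.1%, was higher in the same 2 numbers. Its part in the result was not tested.

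For 6 of the 8 genes the highest level in any of the 10 types was at most 1.77% of the MOL-like level, and it was 1.68 to 2.70 times the lowest. Mbp had 83.7 CPM (endothelial-like) to 140.5 CPM (neuron-like), which is 1.03% to 1.73% of its MOL-like level. Mobp had 44.3 to 74.8 CPM, Mag 25.9 CPM (VLMC-like) to 66.5 CPM (microglia-like), Mog 15.7 to 32.4 CPM, Opalin 11.2 to 27.98 CPM and Ermn 8.61 to 23.3 CPM. The intervals of Mag in microglia-like cells (53.4 to 81.8 CPM) and in tanycyte-like cells (37.8 to 50.2 CPM) did not overlap. In microglia-like cells the 8 genes together had 504 CPM and in neuron-like cells 489 CPM. The share of cells with a UMI of Mbp was 75.0% in neuron-like cells (median depth 13070 UMIs) and 30.1% in microglia-like cells (3080 UMIs), and with every cell thinned to 1000 UMIs it was 14.1% and 10.9%. Of the 4257 cells outside the lineage, 3405 had none of the 8 genes on and 0 had 4 or more on, which allows a share of up to 0.0705%, whereas all 658 MOL-like cells had at least 6 on. At the median depth of 3322 UMIs outside the lineage, 2 UMIs stand above 10% of the MOL-like level for the less abundant genes. Clusters with the MOL markers were also placed in the lineage. The limit therefore holds for this rule and naming only.

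Cnp and Mal went beyond such levels, Cnp most in astrocyte-like and ependymocyte-like cells and Mal in endothelial-like cells. Cnp had 781 CPM in astrocyte-like cells (754 to 809), 9.32% of its MOL-like level, with 742, 708, 840 and 859 CPM by barcode number. The other 7 genes together were at 1.17% in these cells. Ependymocyte-like cells had 551 CPM of Cnp (505 to 599), tanycyte-like cells 236 CPM (222 to 250), and the other 7 types 129 to 194 CPM. With cells thinned to 1000 UMIs, 53.1% of astrocyte-like, 45.05% of ependymocyte-like and 21.6% of tanycyte-like cells had a UMI of Cnp, against 14.1% of neuron-like and 17.2% of microglia-like cells. The 2 large astrocyte-like clusters had 793 and 745 CPM. The MOL marker list had 150 CPM in astrocyte-like cells, against 13252 CPM in MOL-like and 159 CPM in neuron-like cells, and Cnp had 785 CPM in them without the cells called doublets.

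Cnp (chromosome 11, 100574904 to 100591729, plus strand) overlaps Dnajc7 on the other strand, and whether the authors' counting used strand is not given in the sources used here. Dnajc7 had 725 CPM in ependymocyte-like cells, above its 101 CPM in astrocyte-like and 158 CPM in MOL-like cells. Whether UMIs of Dnajc7 were counted as Cnp in ependymocyte-like, astrocyte-like or other cells was not tested. Ermn overlaps Galnt5 on the other strand, which had 0 to 2 UMIs in any type.

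Mal had 493 CPM in endothelial-like cells (404 to 596), 10.5% of its MOL-like level, from 106 UMIs in 84 cells. By barcode number it had 443, 503, 467 and 593 CPM, and the next type, ependymocyte-like, had 45.0 CPM (32.9 to 60.3). The other 7 genes together were at 1.28% of their MOL-like level in endothelial-like cells. With cells thinned to 1000 UMIs, 35.7% of endothelial-like cells had a UMI of Mal, against 1.33% to 3.95% in the other 9 types. All 7 endothelial markers were highest in these cells, at 26180 CPM in sum, and Mal had 507 CPM without the 2 cells called doublets. The MOL marker list had 493 CPM there, with 3 of its 8 genes at 0.

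**Figure D5:**
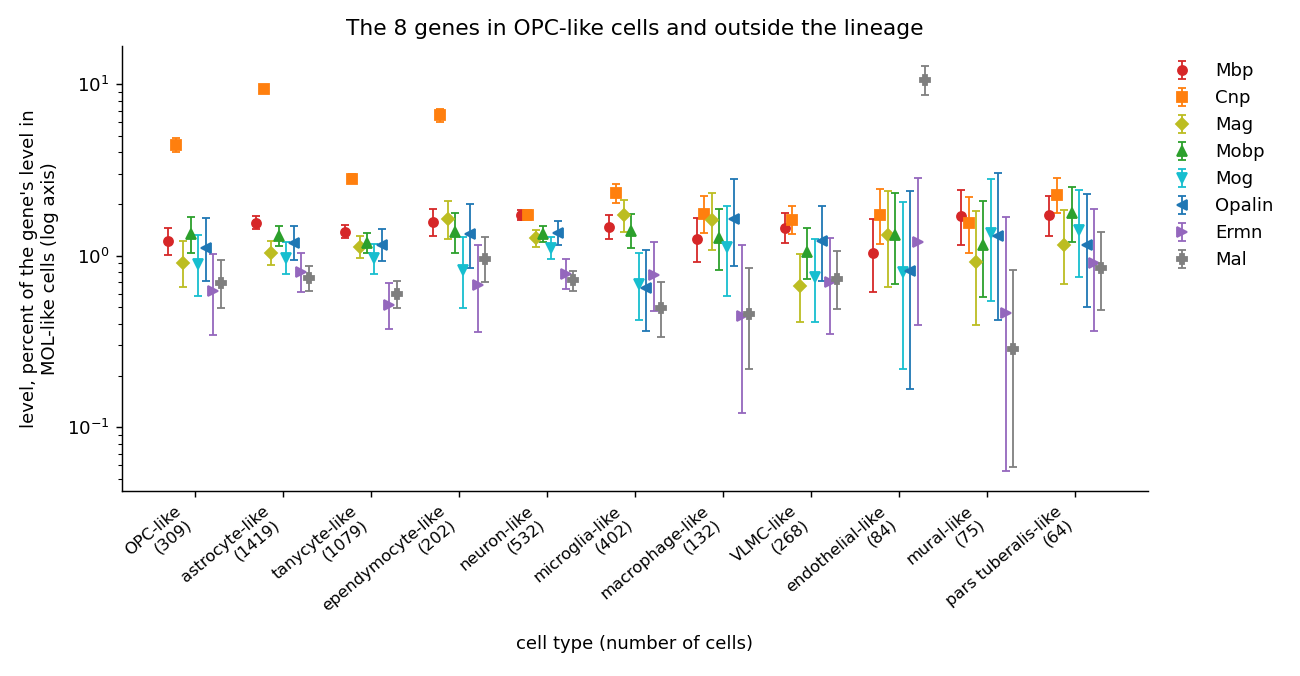
Level of each gene as a percent of its level in MOL-like cells (log axis) in OPC-like cells and the 10 types outside the lineage, with 95% counting intervals and the number of cells below each. Most points lie near 1%, Cnp stands at 9.32% in astrocyte-like and 6.57% in ependymocyte-like cells, and Mal at 10.5% in endothelial-like cells.

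Over the 13 named types, the genes whose levels were most like the mean of the members by Pearson's r were Ly6g6f (0.995), Tmem88b (0.991), Prima1, Tnni1, Tmem125, Wnt3, Gm16168, Btbd16, Tprn and Cldn11 (0.971). The members themselves had r of 0.818 (Mal) to 0.996 (Mobp). The 13 points share 4 libraries and differ in depth, and r is given as a description. Cldn11 had 8117 CPM in MOL-like cells and 35.1% of that level in diffOPC-like cells, between Mag and Mobp, and Tmem88b 349 CPM and 25.9%. Within MOL-like cells thinned to 1000 UMIs the 28 pairs of members had r of -0.06 to 0.22 (median 0.10), which in counts this sparse is no finding.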

How the data were processed

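From 10x 3′ libraries the authors made UMI counts on mm10 (GRCm38) with Cell Ranger 2.0, and deposited these raw counts in 1 matrix of all cells. Whether counting used strand, and whether depth was equalised between libraries, are not given in the sources used here. Gene identifiers were named from GENCODE vM21 (27645 of 27998). Columns of per-sample values not used numbered 0.

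Counts were scaled to CPM, and cells were clustered with scanpy 1.11.5 (2000 variable genes without the members, 30 principal components, 15 neighbours, Leiden resolution 1). Clusters were named by marker lists, of which at least 3 genes had to stand 4 times above the median cluster. Lineage cells were clustered again and named by 3 lists. Doublets (50 calls, 0.836% of cells) were kept, and 3 cells with over 10% haemoglobin UMIs were set apart. Levels are summed UMIs of a type, with exact Poisson, Clopper-Pearson or conditional binomial intervals. Fold calls needed 50 UMIs over both stages and 1 log2 unit after adding 10 CPM. The script that makes them was checked on simulated data. Named genes were the members, the 4 with the largest log2 ratio of each list in each stage comparison if past 1 log2 unit, the 10 most alike over types, and markers. The members, lists and alternatives were chosen with earlier results of these data known. Fasted and refed cells were not compared, since the sources used here tie no cell to a condition. Alternatives were other genes or methods for clustering, other cell filters, thinned counts, other measures of onset, pseudocounts and gene filters, and each barcode number left out. With a number left out, the remaining cells were clustered and named again. 2 listed genes are not reported here.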

Additional observations from a re-analysis of the deposited data

How the results depend on the processing

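The share of the 8 genes in MOL-like cells (3.53%) was 3.21% with the members kept among the variable genes, 3.36% with the other myelin lists also left out, 3.21% at Leiden resolution 2, 3.54% with K-means, 3.40% without doublets, 3.24% with a limit on mitochondrial UMIs, 3.42% with cells thinned to 1000 UMIs, 3.64% without the cluster led by Acta2 and 3.23% to 3.56% with 1 barcode number left out. Their level outside the lineage (1.82% of the MOL-like level) was 1.99%, 1.91% and 2.00% (1.9967) under the first 3 of these settings, 1.92% without doublets, 1.98% with the mitochondrial limit, 2.15% thinned, 1.45% as the median over types, and 1.66% to 2.12% with 1 number left out. The number of members higher in diffOPC-like than in OPC-like cells (7) was 4 with the members kept, with the lists left out, without doublets, with the mitochondrial limit, thinned, and without the 8 cells, and 5 to 7 with 1 number left out. Thinning sums fewer UMIs. The 8 cells held 620 of the 705 Mobp, 39 of the 82 Opalin and 30 of the 44 Ermn UMIs of the diffOPC-like stage. With the members kept, the lists left out, the doublets left out or the mitochondrial limit, 130 to 132 cells were diffOPC-like. In these settings Mobp was at 1.85% to 1.93% of its mature level, against 1.76% without the 8 cells. The cause was not tested for thinning, for these settings or with 1 number left out. The other comparison had 5 or 6 in every alternative run. Of the 28 pairs in the order of onset, 14 kept it by mean position along the path (the cause was not tested) and 25 to 28 kept it otherwise. Mobp had 1.76% to 13.98% of its mature level over the alternatives, Mag 25.6% to 64.6%, Mbp 93.3% to 117%, Cnp 74.9% to 90.8%, Mog 7.99% to 10.9%, Opalin 2.18% to 4.18%, Ermn 0.611% to 2.32% and Mal 0.496% to 1.53%. Of 355 recomputed values, 241 stayed within the counting interval or within 1.5 times the count reported, and 114 moved further. The alternatives without the Acta2-led cluster, without doublets for Cnp and Mal, by cells with a gene on, and without the 8 diffOPC-like or 20 MOL-like cells were chosen after seeing the data. No paired analysis was possible because no cell could be tied to a library or replicate number. With 1 pooled sample, counting intervals do not cover differences between animals, and low levels of Mal and Ermn in diffOPC-like cells rest on 76 and 44 UMIs.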

Other observations

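Defining genes of other types were also found at low levels outside their own type, and the share differed between genes. Free RNA, low expression and doublets as sources of these UMIs were not told apart. As the median over the other types, the tanycyte gene Rax was at 1.99% of its level in tanycyte-like cells, the astrocyte gene Agt at 1.56% and the neuron gene Snap25 at 1.29%, near the 0.725% (Mal) to 2.00% (Cnp) of the 8 myelin genes. The microglia gene C1qa was at 0.394%, the ependymocyte gene Ccdc153 at 0.266%, the VLMC gene Dcn at 0.175% and the endothelial gene Cldn5 at 0.0595%. In MOL-like cells themselves Agt had 59.9 CPM, Dcn 77.3 CPM and C1qa 34.0 CPM. The 8 OPC-like cells led by cell division genes (Top2a, Ube2c, Birc5) had 11 UMIs of Cnp, 6 of Mobp, 3 each of Mbp and Opalin, 2 of Mal and 0 of Mag, Mog and Ermn. So few cells and UMIs cannot show a difference from the other OPC-like cells.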
